A study of Mus musculus with 42 samples.

Results

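The comparison concerns ribosome footprints of MLL-AF9 leukaemia cells from vehicle-treated mice whose food lacked leucine, isoleucine and valine, the branched-chain amino acids (BCAA), set against vehicle-treated mice fed a standard amino acid diet. It rests on 10 of the 42 libraries of the series, chosen by their labels: 5 footprint libraries from BCAA-free mice and 5 from amino acid mice. MLL-AF9 is the fusion oncogene of an acute myeloid leukaemia that can be passed from mouse to mouse. The cells carried green fluorescent protein (GFP) and luciferase and were grown outside the animal before they were injected behind the eye of male recipients aged 8 to 10 weeks. The recipients were not conditioned beforehand, so they kept their own blood cells, and the genotype label of both groups was wild type. Vehicle was phosphate-buffered saline. Viable GFP-positive cells were sorted from crushed bone marrow, lysed with cycloheximide, which holds ribosomes in place, and split: a small part of each lysate gave an mRNA library (Smart-seq2, a full-length cDNA method), and RNase I digestion of the remainder gave footprints, the stretches of mRNA that a ribosome shields. The mRNA libraries of the same 10 mice, and 11 footprint libraries of mice given 5+3 (cytarabine with doxorubicin; 7 on the BCAA-free diet and 4 on the amino acid diet), are set beside the result below. The names of the 5 amino acid mice given vehicle, and of no others, end in B, which the labels do not explain. If that letter marks a batch, it cannot be told apart from the diet.

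Branched-chain amino acids are essential in the diet. Cells take them up through transporters such as Slc7a5, and the transaminases Bcat1 and Bcat2 and the branched-chain ketoacid dehydrogenase, of which Bckdha is a subunit, break them down. Leucine is sensed by Sestrin proteins upstream of mTORC1, the kinase complex that drives ribosome production and growth, while uncharged tRNA activates Gcn2, which raises translation of the transcription factor Atf4 and, through it, genes of amino acid synthesis, uptake and tRNA charging. In myeloid leukaemia, Bcat1 has been linked to growth of the leukaemic cells. Footprint counts depend on how much of an mRNA there is and on how many ribosomes it carries, so they were read together with the mRNA of the same mice. In sorted cells pooled into 1 library, fewer cells of a type and less RNA per cell cannot be told apart.

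Total counts per footprint library were 3937345 to 8036732 on the BCAA-free diet and 2697092 to 6175596 on the amino acid diet. Levels are given as CPM, the usual scaling of counts to a common library size, here over the tested protein-coding genes, and are not corrected for gene length. The leukaemia markers were present in footprints on both diets. Myb had 419 to 508 CPM in BCAA-free mice and 408 to 518 CPM in amino acid mice, Hoxa9 57.9 to 76.0 CPM and 47.7 to 74.6 CPM, and Mpo 6813 to 10554 CPM and 5864 to 9886 CPM, in the same order, and only Mef2c of the 14 markers was too low to test. The first principal component of the footprints, which held 23.3% of the variance, separated the diets, and amino acid mice 2 and 3 lay at opposite ends of the second (19.3%). In mRNA, BCAA-free mouse 5 stood apart on the first component (38.3% of the variance), and the second (18.7%) ran from BCAA-free mice 1 (-46.5) and 2 (-34.7) to amino acid mice 2 (28.7) and 4 (48.0). How reads that match several gene copies were counted is not given in the sources used here, so the stefins, Chil3 and Chil4, Oas1a and Oas1g, the Ifi200 genes, Lilra6, haemoglobins and histones are uncertain as to the copy.

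Without chemotherapy, the BCAA-free diet went with a modest change in footprints that was spread over few genes and leaned to lower values. Of 9302 protein-coding genes tested, 421 (4.53%) passed an adjusted p of 0.05 in edgeR's quasi-likelihood test, 135 higher (1.45%) and 286 lower (3.07%). The median log2 change over all tested genes was 0.01, with a median standard error (SE) of 0.145. Among the 421 genes, 54 had a log2 change of at least 1 in size and 159 under 0.5. Groups did not overlap in CPM for 89 of the 135 higher genes and 214 of the 286 lower genes, against 537 of all 9302 genes (5.77%). Leaving out 1 mouse at a time left 253 to 452 genes past the threshold, the fewest without BCAA-free mouse 2 (253), BCAA-free mouse 1 (255), amino acid mouse 5 (257) and BCAA-free mouse 3 (276). Without BCAA-free mice 1, 2 and 5, which leaves 2 mice against 5, 57 genes passed.

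**Figure D1:**
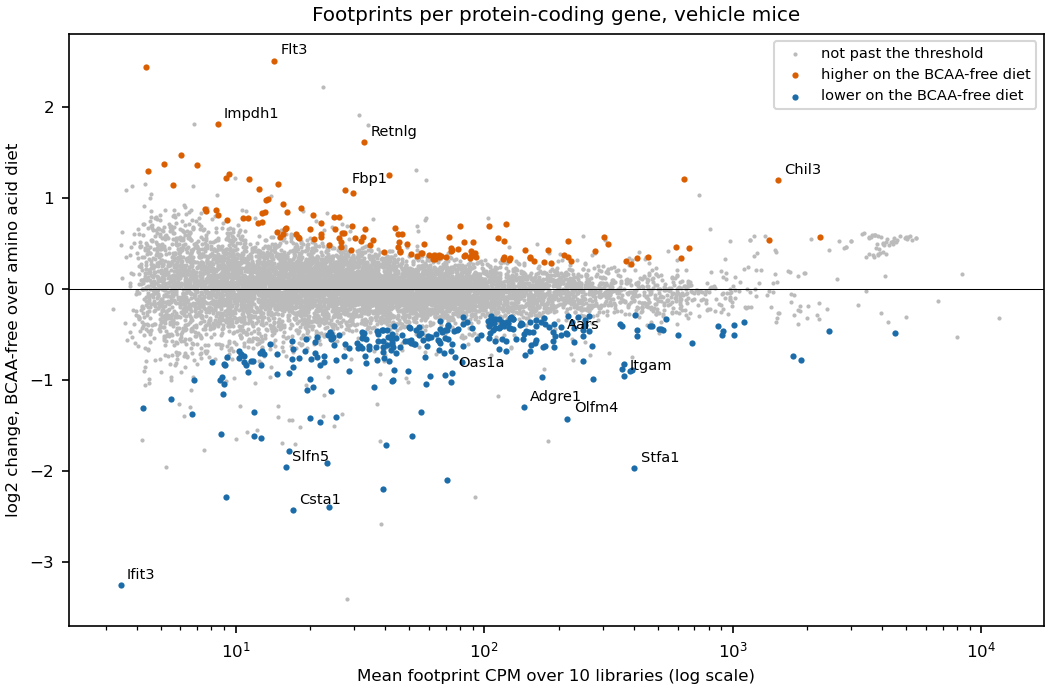
Footprint log2 change (BCAA-free over amino acid diet) of each of the 9302 tested protein-coding genes against its mean footprint CPM on a log scale. Coloured points passed the threshold (135 orange, higher; 286 blue, lower). Most coloured points lie within 1 log2 unit of 0, with Flt3 the highest and Ifit3 the lowest of the coloured points.

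The genes with the highest change were led by Flt3, a receptor tyrosine kinase of early blood progenitors that is often mutated in human acute myeloid leukaemia (chromosome 5, 147330741 to 147400489, GRCm38). Flt3 had 23.5, 13.9, 36.2, 24.0 and 23.6 CPM in the 5 BCAA-free mice, against 5.18, 2.79, 5.85, 1.21 and 6.62 CPM in the 5 amino acid mice. Every BCAA-free mouse lay above every amino acid mouse, and the log2 change was 2.51 ± 0.35 (SE, adjusted p = 0.00138). Flt3 passed in all 10 fits that left out 1 mouse, but its adjusted p was 0.0519 when the 5+3 libraries shared the fit. Retnlg, a resistin-like protein of neutrophils (chromosome 16, 48872608 to 48874498), had 48.0, 36.3, 65.5, 55.6 and 43.7 CPM in BCAA-free mice, against 11.8, 14.6, 19.0, 10.9 and 23.7 CPM in amino acid mice. The groups did not overlap, with a log2 change of 1.62 ± 0.21 (adjusted p = 0.000235). Fbp1, fructose-1,6-bisphosphatase, which runs the regulated step of gluconeogenesis (chromosome 13, 62864753 to 62888298), had 37.3, 38.9, 39.8, 30.6 and 40.7 CPM in BCAA-free mice, against 17.7, 19.5, 20.5, 13.0 and 18.1 CPM in amino acid mice. Its level was 2.14-fold that of the amino acid diet (log2 change 1.10 ± 0.14, adjusted p = 5.84e-05).

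Secreted proteins of myeloid cells were among the other higher genes. The chitinase-like protein gene Chil3 had 2051, 1604, 3044, 1326 and 2541 CPM in BCAA-free mice, against 998, 974, 711, 762 and 1155 CPM in amino acid mice (log2 change 1.20 ± 0.22, adjusted p = 0.00705). Its adjusted p was 0.0724 with the 5+3 libraries in the fit. Its near copy Chil4 moved by 1.21 ± 0.25 (adjusted p = 0.0305) and missed the threshold without amino acid mouse 2, 3 or 4 or BCAA-free mouse 1 or 5 (adjusted p up to 0.0698). Chil4 footprints averaged 887 CPM in BCAA-free mice and 385 CPM in amino acid mice. Its mRNA averaged 1.59 CPM and 0.919 CPM and Chil3 mRNA 760 CPM and 411 CPM, in the same order. Which copy the Chil4 footprint reads come from was not tested. The chemokine gene Ccl9 had 74.5, 61.3, 75.6, 42.0 and 38.1 CPM in BCAA-free mice, against 31.1, 13.2, 30.0, 20.0 and 27.5 CPM in amino acid mice. The groups did not overlap (1.26 ± 0.25, adjusted p = 0.0200), although Ccl9 missed the threshold without BCAA-free mouse 2 (adjusted p = 0.0548). Eng, endoglin, a co-receptor of the TGF-beta family, averaged 15.8 ± 1.97 CPM in BCAA-free mice and 6.98 ± 1.41 CPM in amino acid mice (SD, n = 5 each), a log2 change of 1.21 ± 0.20 (adjusted p = 0.000827). Tinagl1, Ifitm6 and Hmox1 (haem oxygenase, which degrades haem) rose by 1.15, 1.11 and 0.99. With the 5+3 libraries in the fit Ifitm6 had an adjusted p of 0.255 and Hmox1 of 0.0837. Iqgap2 and Ccdc33 rose by 1.06 and 0.98, but passed in 2 and 7 of the 10 fits without 1 mouse (adjusted p up to 0.0939 and 0.0553).

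Several of the lowest changes among genes with a mean of at least 10 CPM belonged to stefins, small inhibitors of cysteine proteases that mouse myeloid cells express from a gene cluster on chromosome 16. Stfa1 (36277148 to 36285371) had 120, 119, 71.7, 213 and 302 CPM in BCAA-free mice, against 498, 749, 658, 863 and 428 CPM in amino acid mice. All BCAA-free mice lay below all amino acid mice, and the level was 3.90-fold higher on the amino acid diet (log2 change -1.96 ± 0.41, adjusted p = 0.0354). The 2 BCAA-free mice nearest to the amino acid group were 4 and 5, and the call held in 1 of 10 fits without 1 mouse, that without BCAA-free mouse 5 (adjusted p up to 0.0925 in the rest). Csta1 had 7.15, 2.96, 2.52, 5.66 and 9.86 CPM in BCAA-free mice, against 22.2, 35.5, 23.4, 37.8 and 22.998 CPM in amino acid mice. Its log2 change was -2.43 ± 0.30 (adjusted p = 0.000358), and it passed in all 10 of those fits. Stfa3, Stfa2 and Stfa2l1 changed by -2.39, -1.71 and -1.61, each with no overlap between the diets. Stfa3 passed in 3, Stfa2 in 10 and Stfa2l1 in 7 of the 10 fits, with an adjusted p of up to 0.0954, 0.0408 and 0.0709. With the 5+3 libraries in the fit, Stfa2 and Stfa2l1 had adjusted p of 0.0575 and 0.0647.

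Olfm4, olfactomedin 4, a protein of neutrophil specific granules (chromosome 14, 80000302 to 80023141), had 99.5, 145, 79.7, 150 and 117 CPM in BCAA-free mice, against 324, 277, 392, 257 and 323 CPM in amino acid mice. It fell in footprints with a log2 change of -1.42 ± 0.18 (adjusted p = 0.00136). Slfn5, a Schlafen protein that interferon induces (chromosome 11, 82951349 to 82964850), had 3.57, 5.07, 7.79, 7.07 and 8.14 CPM in BCAA-free mice, against 25.1, 27.2, 28.2, 14.8 and 32.8 CPM in amino acid mice. Its level was 3.88-fold higher on the amino acid diet (-1.95 ± 0.23, adjusted p = 3.08e-05). The Ifi200 genes Ifi214, Ifi204 and Ifi209 on chromosome 1, nucleic acid sensors that interferon induces, changed by -1.64, -1.62 and -1.46. Ifi209 passed in 3 of the 10 fits without 1 mouse (adjusted p up to 0.117), and so did the immunoglobulin-like receptor gene Lilra6 in 4 (-1.42, adjusted p up to 0.111).

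**Figure D2:**
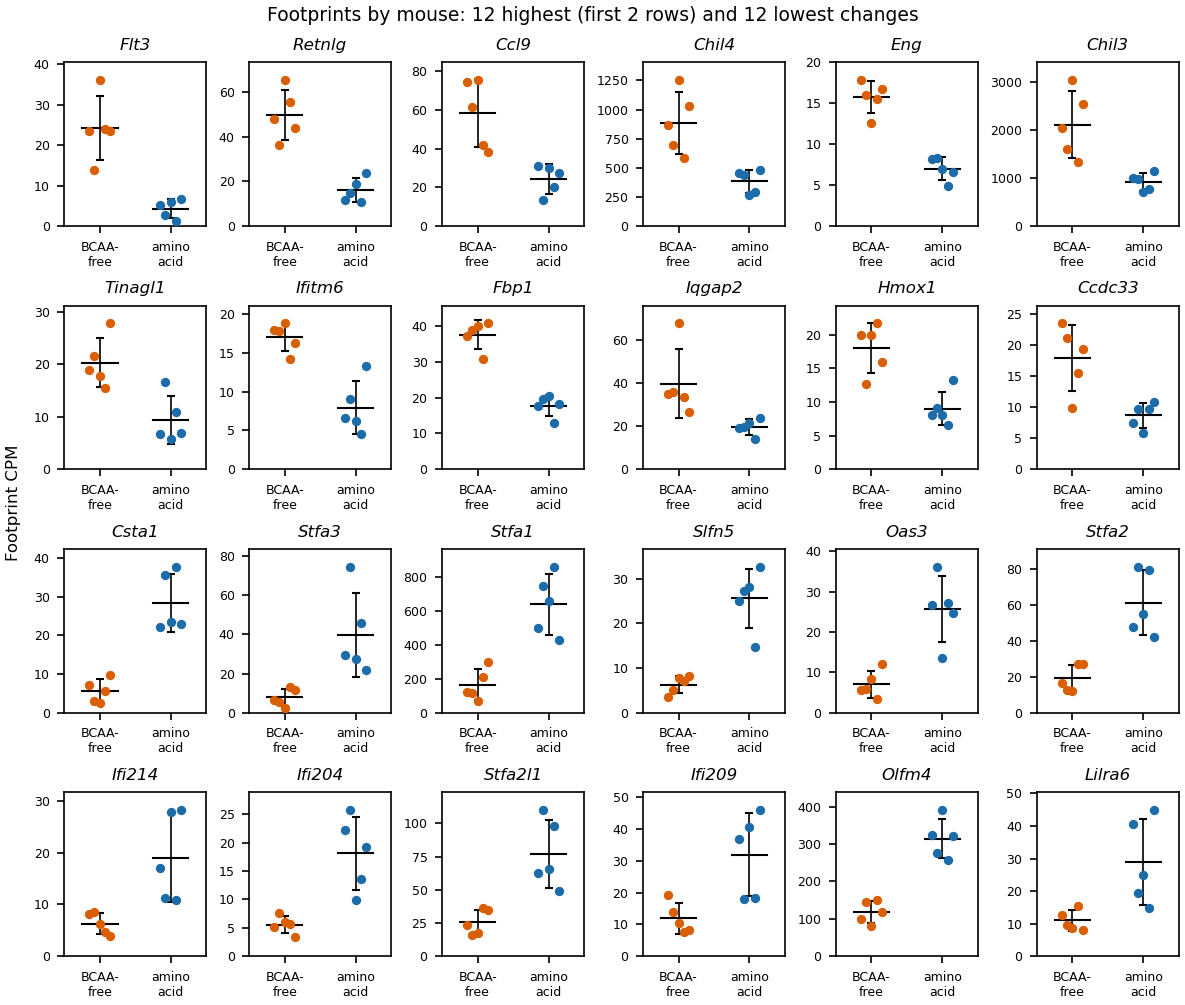
Footprint CPM by mouse for the 12 highest (upper rows) and 12 lowest (lower rows) changes past the threshold among genes with a mean of at least 10 CPM, without genes named only as Gm and a number or ending in Rik. Orange points are the 5 BCAA-free mice and blue points the 5 amino acid mice; lines and bars are mean and SD, and each vertical axis starts at 0. Groups are apart for genes such as Flt3, Retnlg, Slfn5 and Csta1 and overlap for Tinagl1, Hmox1, Ccdc33, Ifi209 and Lilra6.

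Genes that interferon induces were lower on the BCAA-free diet. Many of these genes carry, in their promoters, an element bound by transcription factors that interferon activates, and many code for antiviral proteins. Of 42 listed genes 37 were tested, 10 fell past the threshold (27.0%, against 3.07% of all genes), and none rose. The 10 were Irf9, Ifit1, Ifit2, Ifit3, Oas1a, Oas1g, Oas3, Ddx58, Ifi27 and Samhd1. The median log2 change of the 37 was -0.61 against 0.01 over all genes, and all 37 were below 0 against 48.7% of all genes. Ifit3, an antiviral protein of the same family as the RNA-binding Ifit1, had 0, 0.845, 0.687, 0.471 and 0.857 CPM in BCAA-free mice, against 6.66, 7.67, 5.85, 6.96 and 4.53 CPM in amino acid mice (-3.25 ± 0.42, adjusted p = 5.14e-05). It was below 1 CPM in every BCAA-free mouse and low on the amino acid diet as well. Oas1a, an enzyme that makes the 2-5A signal for RNA decay, had 50.0, 44.0, 54.3, 44.3 and 64.3 CPM in BCAA-free mice, against 85.0, 112, 84.9, 113 and 92.3 CPM in amino acid mice. No mouse of either diet reached the other group (-0.92 ± 0.12, adjusted p = 5.11e-05). Samhd1, which degrades deoxynucleotides and also cytarabine triphosphate, averaged 121 ± 20.6 CPM in BCAA-free mice and 186 ± 26.2 CPM in amino acid mice (-0.61 ± 0.11, adjusted p = 0.00218).

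The summed level of the interferon-stimulated genes overlapped between the diets. It was 1569, 1467, 1792, 1194 and 2051 CPM in BCAA-free mice, against 2033, 3406, 1868, 2696 and 1908 CPM in amino acid mice, with amino acid mice 2 and 4 highest. The same mice were highest for the guanylate-binding proteins and immunity-related GTPases, which interferon gamma induces and which attack pathogen vacuoles. That sum was 965, 885, 1237, 454 and 1703 CPM in BCAA-free mice, against 1018, 3338, 713, 2115 and 847 CPM in amino acid mice. All 16 of those genes had changes below 0 (median -0.51), and none passed the threshold. Members of these lists move together from mouse to mouse, so their number is not a number of independent observations. Without BCAA-free mouse 2, 6 of the interferon-stimulated genes passed, and 16 did with no filter on low counts.

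Promoters of 2 interferon-stimulated genes are shown for an element that many genes of this list, but not all, carry in the window searched. Sequences are those of RefSeq on GRCm38.p6, from 250 bases before to 50 after a start, in the direction of transcription, and capitals mark the core of the interferon-stimulated response element, GAAA followed by any 2 bases (NN) and GAAA again, searched on both strands. Overlapping matches run together. The core was found in 15 of the 28 tested interferon-stimulated genes with a promoter in the table (53.6%) and in 308 of all 7621 tested genes with a promoter (4.04%). It was found in 21 of 229 genes that fell (9.17%), 6 of them on the interferon list, and in 2 of 110 genes that rose (1.82%). The windows of Oas1g, chr5:120887564-120887863 on the minus strand, and Ifit3, chr19:34583279-34583578 on the plus strand, hold 2 matches each.
Oas1g: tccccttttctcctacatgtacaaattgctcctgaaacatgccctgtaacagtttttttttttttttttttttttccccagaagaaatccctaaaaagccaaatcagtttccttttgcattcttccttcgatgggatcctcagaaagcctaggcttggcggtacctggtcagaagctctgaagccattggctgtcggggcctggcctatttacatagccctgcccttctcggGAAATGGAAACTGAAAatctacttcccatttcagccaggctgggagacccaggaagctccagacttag
Ifit3: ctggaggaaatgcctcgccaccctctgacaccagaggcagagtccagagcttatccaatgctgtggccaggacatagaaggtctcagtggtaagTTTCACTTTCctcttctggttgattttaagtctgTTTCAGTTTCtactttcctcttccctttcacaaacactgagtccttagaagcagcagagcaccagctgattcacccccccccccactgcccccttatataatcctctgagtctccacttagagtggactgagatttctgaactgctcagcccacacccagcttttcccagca

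The enzymes that load amino acids onto tRNA in the cytosol were lower as a group. All 20 listed cytosolic aminoacyl-tRNA synthetases were tested, 9 fell past the threshold (45%, against 3.07% of all genes) and none rose, with a median log2 change of -0.28. The summed level did not overlap between the diets: it was 3264, 3462, 3411, 3261 and 3385 CPM in BCAA-free mice, against 3940, 3987, 4212, 3684 and 3852 CPM in amino acid mice. The 9 were the synthetases for alanine (Aars), methionine (Mars), cysteine (Cars), tyrosine (Yars), isoleucine (Iars), glutamate and proline (Eprs), serine (Sars), asparagine (Nars) and glycine (Gars). Aars had 160, 185, 157, 160 and 180 CPM in BCAA-free mice, against 251, 243, 256, 223 and 221 CPM in amino acid mice (-0.50 ± 0.08, adjusted p = 0.000981). Its groups were apart, and those of Mars (-0.54), Cars (-0.62) and Yars (-0.53) were too. Of the enzymes that charge the withdrawn amino acids, Iars, for isoleucine, had 134, 170, 166, 147 and 177 CPM in BCAA-free mice, against 214, 214, 260, 197 and 213 CPM in amino acid mice (-0.47 ± 0.09, adjusted p = 0.00468). Lars, for leucine, had a log2 change of -0.29 ± 0.09 that missed the threshold (adjusted p = 0.0709), and Vars, for valine, one of 0.05 ± 0.10 (adjusted p = 0.829). With the 5+3 libraries in the fit 3 of the 20 passed, and Cars and Yars had adjusted p of 0.244 and 0.0922. Without BCAA-free mice 1, 2 and 5, 1 passed. Of 17 mitochondrial synthetases (median 0.06) Lars2, which charges leucine, alone passed (-0.77 ± 0.21), in 3 of the 10 fits without 1 mouse (adjusted p up to 0.135). Lars2 averaged 1395 CPM in BCAA-free mice and 2388 CPM in amino acid mice, of a mean list sum of 1729 CPM and 2722 CPM. Its mRNA averaged 9816 ± 19770 CPM and 7783 ± 12121 CPM (SD, n = 5 each), in the same order, with an SD above the mean. Whether all reads counted for Lars2 come from its mRNA was not tested.

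Promoters of Aars and Yars are shown for the core of the amino acid response element, TGATGNAA, which Atf4 binds with a partner. Both strands were searched and capitals mark the matches. The core was found in 5 of the 13 synthetases with a promoter in the table (38.5%), 4 of them among the 7 that fell, in 6 of 229 genes that fell (2.62%) and in 196 of all 7621 genes (2.57%). The window of Aars is chr8:111033592-111033891 on the plus strand and that of Yars chr4:129189653-129189952 on the plus strand.
Aars: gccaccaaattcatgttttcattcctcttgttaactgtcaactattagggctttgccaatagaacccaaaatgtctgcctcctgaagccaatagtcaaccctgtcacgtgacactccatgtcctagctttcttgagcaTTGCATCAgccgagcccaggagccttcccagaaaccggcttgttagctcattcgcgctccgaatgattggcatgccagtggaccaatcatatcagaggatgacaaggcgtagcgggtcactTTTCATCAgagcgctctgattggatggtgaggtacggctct
Yars: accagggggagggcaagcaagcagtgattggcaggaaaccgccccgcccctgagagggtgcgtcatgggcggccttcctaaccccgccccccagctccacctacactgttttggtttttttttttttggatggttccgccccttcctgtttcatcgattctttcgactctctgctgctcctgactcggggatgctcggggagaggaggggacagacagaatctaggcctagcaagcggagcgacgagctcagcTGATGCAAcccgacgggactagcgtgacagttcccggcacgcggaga

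**Figure D3:**
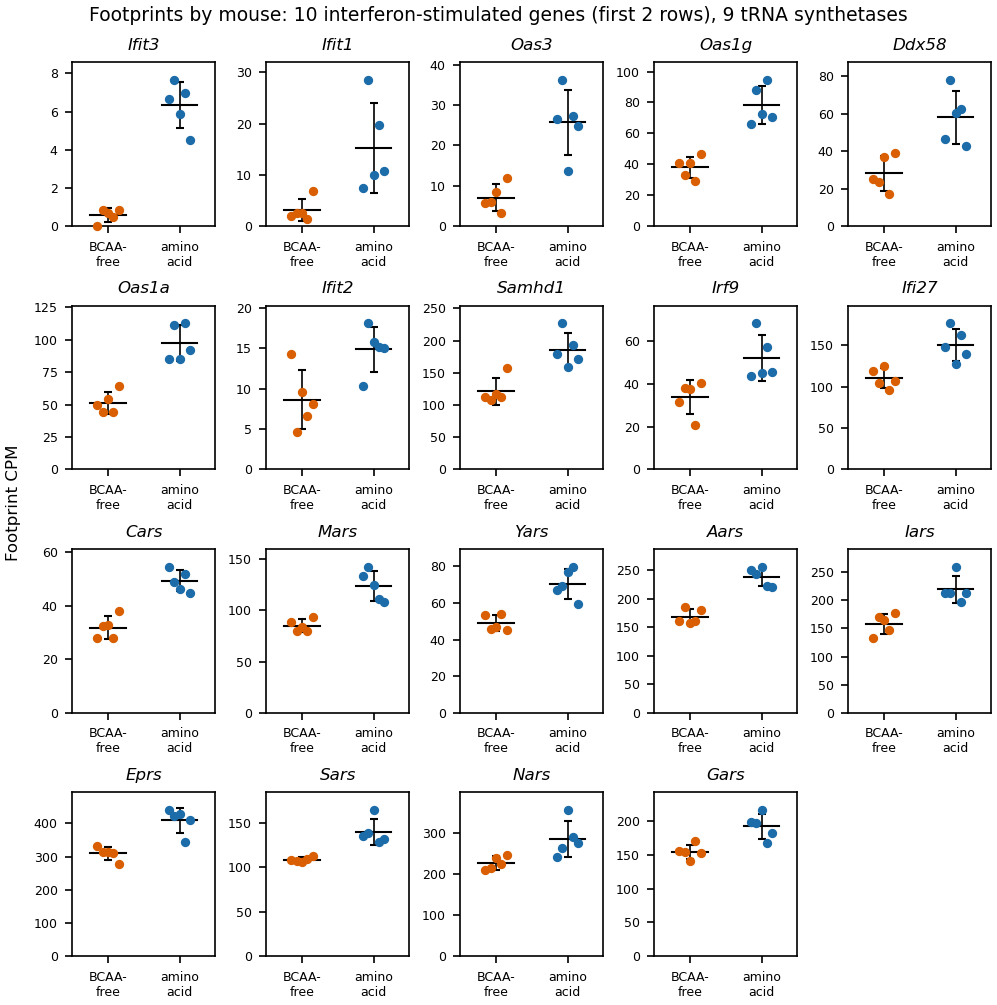
Footprint CPM by mouse of the 10 interferon-stimulated genes (upper rows) and 9 cytosolic aminoacyl-tRNA synthetases (lower rows) that fell past the threshold. Orange points are the 5 BCAA-free mice and blue points the 5 amino acid mice; lines and bars are mean and SD, and each vertical axis starts at 0. The synthetases differ by a small amount with little spread, and Ifit1 and Oas3 by more with a wide spread among amino acid mice.

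Other genes of amino acid handling held few calls. Of 23 tested genes of BCAA breakdown 1 rose and 1 fell (8.70% called, against 4.53% of all genes), with a median of 0.06. Mccc1, a subunit of the carboxylase of leucine breakdown, averaged 20.6 ± 5.49 CPM in BCAA-free mice and 33.8 ± 4.34 CPM in amino acid mice (SD, n = 5 each; -0.73 ± 0.16, adjusted p = 0.00738). Pccb, a subunit of propionyl-CoA carboxylase on the valine and isoleucine route, rose by 0.34 (adjusted p = 0.0380), but passed in 2 of the 10 fits without 1 mouse (adjusted p up to 0.114). Bcat2 (0.19 ± 0.10), Bckdha (0.17 ± 0.11) and Bckdk, the kinase that shuts the dehydrogenase off (0.18 ± 0.15), did not pass. Bcat1 was too low to test, with 14 counts summed over the BCAA-free mice and 6 over the amino acid mice. Among 16 amino acid transporters 1 fell, Slc7a8 (6.25% called, against 4.53% of all genes). Slc7a8 changed by -0.78 (adjusted p = 0.0473) and passed in 3 of the 10 fits (adjusted p up to 0.142). Slc7a5 had a change of 0.24 ± 0.12 (adjusted p = 0.282).

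Few genes passed on the lists of Atf4 targets and of integrated stress response regulators, which do not hold the synthetases that fell. Of 19 tested Atf4 targets 1 rose and 1 fell (10.5% called, against 4.53% of all genes), with a median of -0.16. None of 8 regulators of the integrated stress response passed (median -0.21, 6 below 0). The summed level of those regulators did not overlap, with 558 to 639 CPM in BCAA-free mice and 657 to 720 CPM in amino acid mice. Aldh18a1, which makes the precursor of proline, had 60.2, 58.7, 56.1, 66.0 and 55.7 CPM in BCAA-free mice, against 116, 114, 102, 98.9 and 86.8 CPM in amino acid mice (-0.79 ± 0.10, adjusted p = 3.49e-05). The diets were apart for this gene. Phgdh, the entry enzyme of serine synthesis, had 173, 160, 175, 128 and 120 CPM in BCAA-free mice, against 91.0, 126, 68.8, 104 and 74.6 CPM in amino acid mice (0.72 ± 0.17, adjusted p = 0.0297). It moved opposite to Aldh18a1, its groups overlapped, and it passed in 4 of the 10 fits without 1 mouse (adjusted p up to 0.0765). Asns, asparagine synthetase, had 122, 134, 128, 132 and 93.9 CPM in BCAA-free mice, against 170, 157, 161, 142 and 140 CPM in amino acid mice. Its change of -0.33 ± 0.10 had an adjusted p of 0.0551, although every BCAA-free mouse lay below every amino acid mouse. Atf4 itself varied widely, from 24.7 to 52.3 CPM in BCAA-free mice and from 21.6 to 70.2 CPM in amino acid mice (-0.23 ± 0.39, adjusted p = 0.805), and Ddit3 was too low to test. None of 34 tested genes of mTORC1 and its amino acid sensors passed (median -0.02), the leucine sensor Sesn2 (0.45 ± 0.25) and Eif4ebp1 (-0.40 ± 0.18) included.

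Footprints on the translation machinery stayed near the median of all genes. Of 84 cytosolic ribosomal protein genes 1 rose, Rplp1, and none fell (median 0.02), of 69 translation factors Eif4g3 alone passed, lower (median -0.05), and none of 28 ribosome biogenesis genes (median -0.04) or 78 mitochondrial ribosomal protein genes (median 0.10) passed. Rplp1 passed in 2 and Eif4g3 in 5 of the 10 fits without 1 mouse (adjusted p up to 0.0989 and 0.0832).

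Enzymes of sugar use changed in both directions. Of 20 glycolysis genes 5 fell (Pfkp, Pfkl, Aldoa, Hk2 and Hk3) and 1 rose (Pfkm), with a median of -0.14. The share called was 30%, against 4.53% of all genes. The platelet-type phosphofructokinase Pfkp, which commits sugar to glycolysis, had 84.2, 76.9, 79.0, 104 and 97.7 CPM in BCAA-free mice, against 129, 137, 112, 113 and 126 CPM in amino acid mice (-0.48 ± 0.10, adjusted p = 0.00558). The muscle-type Pfkm went the other way at a lower level, with 16.8, 11.8, 14.0, 16.5 and 16.3 CPM in BCAA-free mice, against 11.8, 11.8, 7.68, 5.75 and 10.5 CPM in amino acid mice (0.73 ± 0.21, adjusted p = 0.0442). The count of glycolysis genes past the threshold was 1 without BCAA-free mouse 3, 2 without amino acid mouse 5 and 3 without BCAA-free mouse 1. Both oxidising dehydrogenases of the pentose phosphate pathway, which make NADPH, fell. G6pdx had 134, 116, 115, 132 and 140 CPM in BCAA-free mice, against 200, 195, 190, 167 and 210 CPM in amino acid mice (-0.59 ± 0.09, adjusted p = 0.000306). Pgd had 751, 736, 765, 801 and 779 CPM in BCAA-free mice, against 1089, 1017, 1023, 1011 and 1131 CPM in amino acid mice (-0.46 ± 0.09, adjusted p = 0.00445). The groups were apart for both genes. Pgls, the lactonase between them, rose by 0.42 (adjusted p = 0.0268), in 5 of the 10 fits without 1 mouse (adjusted p up to 0.0884).

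Other metabolic lists held few changes. Of the tested genes 6.90% were called in nucleotide synthesis, 7.14% in fatty acid synthesis and 3.85% among nuclear-encoded subunits of oxidative phosphorylation. The share over all genes was 4.53%. In nucleotide synthesis, Impdh1, an enzyme of guanine nucleotide synthesis, had 13.8, 14.4, 15.1, 10.4 and 13.3 CPM in BCAA-free mice, against 2.22, 2.79, 5.85, 4.23 and 2.79 CPM in amino acid mice. Its level was 3.52-fold that of the amino acid diet with no overlap (1.81 ± 0.24, adjusted p = 7.07e-05), while 1 of the other 28 genes passed, Ampd3 (-0.50; 8 of the 10 fits without 1 mouse, adjusted p up to 0.0848). In fatty acid synthesis Scd2, a desaturase (-0.57), fell, as 1 of 14 tested genes, and had an adjusted p of 0.0575 with the 5+3 libraries in the fit. Of 78 nuclear-encoded subunits of oxidative phosphorylation 3 rose (Uqcr10, Cox6c and Atp5g1; median 0.12), of which Uqcr10 (0.46) passed in every fit without 1 mouse, Cox6c in 1 and Atp5g1 in 3 (adjusted p up to 0.116 and 0.142). None of the 13 mitochondrially encoded proteins passed (median 0.27, all above 0). Among 23 antioxidant genes Hmox1, Prdx1 (0.36) and Gpx4 (0.33) rose and the iron exporter gene Slc40a1 (-0.70) fell (17.4% called, against 4.53% of all genes). Prdx1, Gpx4 and Slc40a1 passed in 3, 4 and 5 of the 10 fits (adjusted p up to 0.0886, 0.107 and 0.0696).

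**Figure D4:**
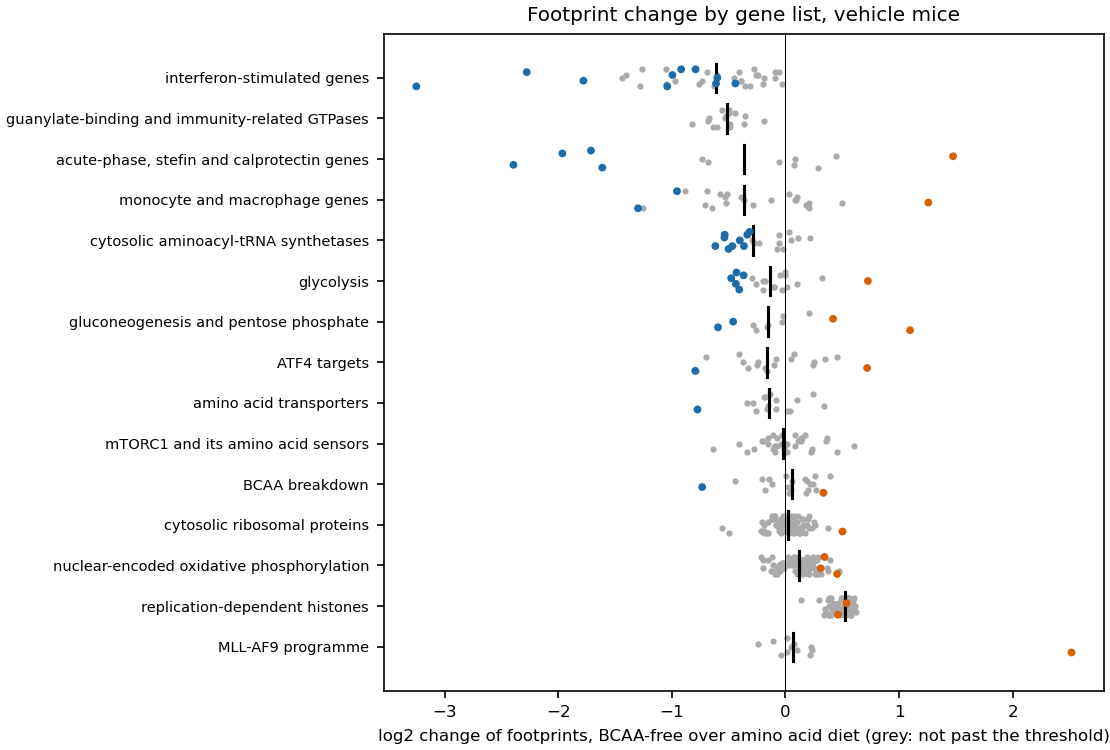
Footprint log2 change (BCAA-free over amino acid diet) of each tested member of 15 gene lists, with the median as a black bar. Coloured points passed the threshold, orange higher and blue lower. All interferon-stimulated genes lie left of 0, the synthetases cluster between -0.62 and 0.22, and the mTORC1, BCAA breakdown and ribosomal protein lists are centred near 0.

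Of 12 tested genes of the MLL-AF9 programme, Flt3 alone passed (8.33% called, against 4.53% of all genes), with a median of 0.06. The changes of the leukaemic transcription factor genes Hoxa9 (0.08 ± 0.12), Meis1 (0.02 ± 0.12) and Myc (0.02 ± 0.10) were smaller than their SE. Markers of myeloid maturation moved in both directions. Itgam, the integrin CD11b of mature myeloid cells (chromosome 7, 128062640 to 128118491), had 213, 246, 240, 275 and 266 CPM in BCAA-free mice, against 546, 481, 508, 352 and 521 CPM in amino acid mice (-0.95 ± 0.11, adjusted p = 1.43e-05). Adgre1, the macrophage marker F4/80 (chromosome 17, 57358581 to 57483529), had 81.1, 81.6, 58.8, 107 and 90.4 CPM in BCAA-free mice, against 240, 174, 206, 185 and 217 CPM in amino acid mice (-1.30 ± 0.13, adjusted p = 2.06e-05). Both were lower in every BCAA-free mouse than in any amino acid mouse. Among 25 tested monocyte and macrophage genes these fell, Ccl9 rose (12% called, against 4.53% of all genes), and the median was -0.37. Among 21 cytokine receptor genes Csf2ra (-0.40, adjusted p = 0.0104) and Csf3r (-0.52, adjusted p = 0.0268) fell and Flt3 rose (14.3% called, against 4.53% of all genes). Csf3r passed in 5 of the 10 fits without 1 mouse (adjusted p up to 0.0784). None of 14 myeloid transcription factor genes passed (median -0.20).

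The S phase and mitosis lists held few calls, 5% of each against 4.53% of all genes. Of 40 S phase genes Pola1 (-0.49) and Ccne2 (-0.56) fell (median -0.11), of 40 mitosis genes Cenpa rose (0.47) and Anln fell (-0.42) with a median of 0.02, and Mki67 had a change of -0.21 ± 0.11 (adjusted p = 0.329). Ccne2, Cenpa and Anln passed in 5, 2 and 6 of the 10 fits (adjusted p up to 0.107, 0.0820 and 0.0929). All 65 tested replication-dependent histone genes had changes above 0 (median 0.53), of which Hist1h1a and Hist1h1e passed, in 8 and 2 of the 10 fits (adjusted p up to 0.0713 and 0.134). Histone genes took 20.2% to 30.5% of protein-coding footprint counts in BCAA-free mice and 12.7% to 22.4% in amino acid mice. Histone copies are near-identical, so these are not independent genes. Among p53 targets and the Bcl2 family, Bbc3, which codes for the death protein Puma, rose (1.15, adjusted p = 0.0436), in 3 of the 10 fits (adjusted p up to 0.112), and Cdkn1a did not pass (0.25 ± 0.25).

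Markers of other cell types that a sort could carry over moved with the diet in part. Of 17 red cell genes 6 were tested, and all had changes above 0 (median 1.253). Car1, carbonic anhydrase 1, rose by 2.44 ± 0.42 (adjusted p = 0.00123; 0.295 with the 5+3 libraries in the fit) and Car2 by 1.30 (adjusted p = 0.0272; 6 of the 10 fits), and the 4 haemoglobins did not pass. The summed level of the red cell list was 244 to 426 CPM in BCAA-free mice and 76.8 to 285 CPM in amino acid mice. Of 15 mature neutrophil genes Retnlg rose, Fcnb (-0.75; 2 of the 10 fits, adjusted p up to 0.105) and Csf3r fell, and S100a8 (-0.05) and S100a9 (0.09) did not pass. The sum was 1924 to 3029 CPM in BCAA-free mice and 2185 to 2919 CPM in amino acid mice. Of 14 resident macrophage genes 4 were tested and all passed: Vcam1 (-0.62), Slc40a1 and Adgre1 lower and Hmox1 higher. The sum of that list was 324 to 354 CPM in BCAA-free mice and 518 to 623 CPM in amino acid mice. The other 10, the C1q genes, Cd5l, Cd163 and Vsig4 among them, summed to 15.0 to 25.5 CPM in BCAA-free mice and 10.3 to 20.2 CPM in amino acid mice, and none exceeded 6.12 CPM. T and NK genes other than Nkg7 summed to at most 7.07 CPM in BCAA-free mice and 5.18 CPM in amino acid mice. B and plasma cell genes other than Cd79b, which rose (0.73), summed to at most 15.0 CPM and 9.41 CPM, in the same order. Without Nkg7 and Cd79b these sums overlapped between the diets, and with them they did not. The T and NK sum was then 15.0 to 23.6 CPM in BCAA-free mice and 9.98 to 13.2 CPM in amino acid mice. The B and plasma cell sum was 31.1 to 48.6 CPM and 19.5 to 30.3 CPM, in the same order. Nkg7 itself rose (0.78), in 4 of the 10 fits without 1 mouse (adjusted p up to 0.0946). Of 5 tested genes of eosinophils, basophils and mast cells the eosinophil receptor gene Siglecf fell (-0.56 ± 0.11, adjusted p = 0.00325), in all 10 fits, and the sum was 72.9 to 116 CPM in BCAA-free mice and 104 to 131 CPM in amino acid mice. Flt3 and Eng, among the highest changes, are also markers of other cells: Flt3 was 1 of 3 tested dendritic cell genes and Eng 1 of 2 tested endothelial genes, and the rest of those tested did not pass. The dendritic sum was 95.1 to 123.2 CPM in BCAA-free mice and 75.0 to 130 CPM in amino acid mice, and the endothelial sum 27.2 to 42.9 CPM and 19.4 to 42.2 CPM, in the same order. Neither of the 2 tested stroma and bone genes nor of the 2 tested megakaryocyte genes passed, and the stroma and bone sum was 25.6 to 33.5 CPM in BCAA-free mice and 23.8 to 87.1 CPM in amino acid mice. Of the tested mature neutrophil genes 20% were called, as were 20% of the eosinophil, basophil and mast cell genes, against 4.53% of all genes. The share was 33.3% for red cells and dendritic cells, 50% for endothelium and 100% for resident macrophages, each with at most 6 tested genes. No gene of the lists of other cell types found in the table was at 0 in all 10 libraries. The part of these cells in the results above was not tested.

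At the mRNA level the same mice gave few calls. Of 12088 genes tested 8 passed (0.0662%), 7 higher (0.0579%) and 1 lower (0.00827%), and 1157 had an unadjusted p under 0.05, while DESeq2 called 113. The genes were Flt3 (2.87 ± 0.42), the haemoglobins Hbb-bs (2.52) and Hba-a1 (2.28), Retnlg (2.18), the metallothionein gene Mt2 (2.14), Wfdc21 (1.99) and Ccl9 (1.23), all higher, and the inhibitory receptor gene Pilra (-1.71), lower. Flt3 mRNA averaged 45.5 ± 24.7 CPM in BCAA-free mice and 6.22 ± 3.05 CPM in amino acid mice (SD, n = 5 each). Of these 8 genes, Flt3, Retnlg, Wfdc21, Ccl9 and Pilra also passed in footprints in the same direction. The median SE over the 9091 genes tested in both was 0.144 in footprints and 0.280 in mRNA. The median mRNA change was 0.38 over 129 genes that rose in footprints (median footprint change 0.56) and -0.44 over 271 that fell (median footprint change -0.57), both without the few genes too low in mRNA. Csta1, Ifi214, Ccdc33 and Ptpn13 were among those too low, each with a mean of no more than 0.213 mRNA CPM on either diet. The source of their footprint reads was not tested. Leaving out 1 mRNA library left 0 to 12 genes past the threshold, 12 without BCAA-free mouse 5, 2 without amino acid mouse 4 and 0 without BCAA-free mouse 1, 2 or 3 or amino acid mouse 2 or 3.

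A change of footprints relative to mRNA was tested directly with the mouse as a block. No gene of 9091 passed in edgeR's quasi-likelihood test (0% called), 590 had an unadjusted p under 0.05, limma also called 0, and 36 passed with no filter on low counts. The median SE of that difference was 0.318, more than the SE of the footprint change, so a difference of the size of most footprint changes was not detectable here. For the synthetases the median mRNA change was -0.33 and for the interferon-stimulated genes -0.74, on the same side as in footprints. Mars (-0.77 ± 0.26), Cars (-1.38 ± 0.58) and Yars (-0.94 ± 0.28) were lower in mRNA, though none passed. Aars was at 0.03 ± 0.19 in mRNA, against -0.50 ± 0.08 in footprints. Its footprint change relative to mRNA, -0.56 ± 0.20, did not pass (adjusted p = 0.742). For cytosolic ribosomal proteins the median was 0.81 in mRNA against 0.02 in footprints. Their share of protein-coding mRNA counts was 6.72% to 12.9% in BCAA-free mice and 3.59% to 7.89% in amino acid mice, highest in BCAA-free mice 2 and 1 and lowest in amino acid mice 4 and 2, the mice at the ends of the second mRNA component. The part of those libraries in the mRNA change was not tested.

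**Figure D5:**
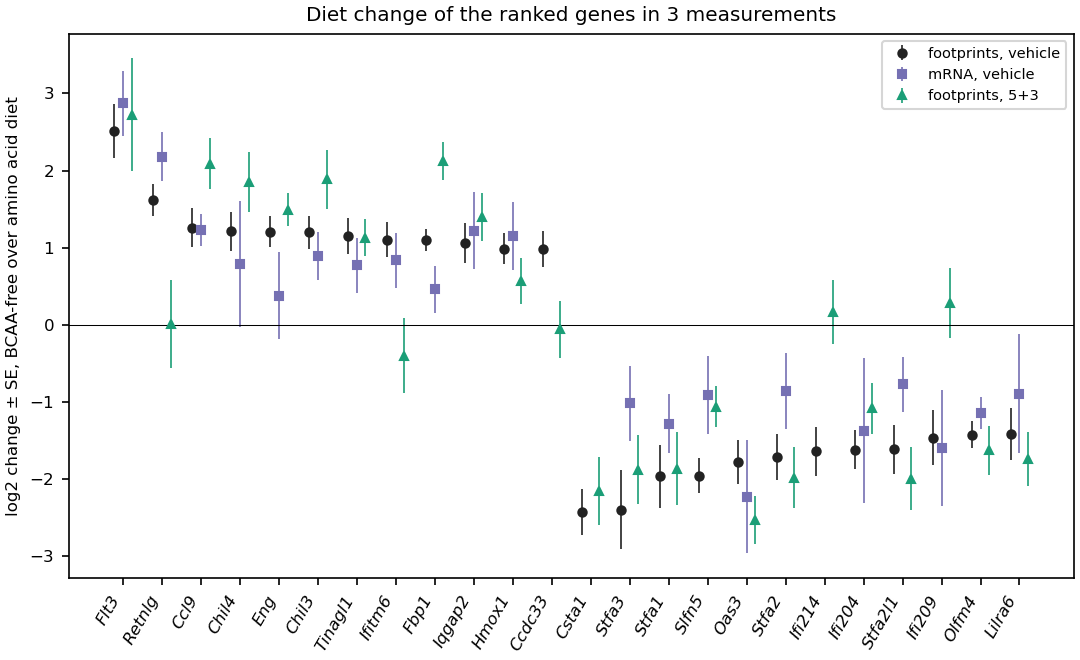
Log2 change ± SE (BCAA-free over amino acid diet) of the 12 highest and 12 lowest genes with a mean of at least 10 CPM, in footprints with vehicle (circles), mRNA with vehicle (squares) and footprints with 5+3 (triangles). A missing symbol means that the gene was too low to test. Most genes keep their side of 0 in all 3 measurements, while Retnlg, Ifitm6, Ccdc33, Ifi214 and Ifi209 lie near or across 0 with 5+3.

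The diet change was also measured in other mice, those given 5+3, where more genes passed. In the fit of all 21 footprint libraries, 3015 of 9893 genes passed between the diets with 5+3 (30.5%) and 312 between the diets with vehicle. Of the 421 genes called with vehicle, 370 (87.9%) changed in the same direction with 5+3 and 238 (56.5%) also passed there, while 8 passed in the opposite direction. Their median change was smaller with 5+3, 0.38 for the genes that rose with vehicle (0.56) and -0.47 for those that fell (-0.57). These genes were chosen by their vehicle values, which raises the vehicle medians, so the medians do not show a weaker diet change with 5+3. Over all tested genes, the 90th percentile of the absolute log2 change was 0.76 with 5+3 and 0.46 with vehicle. Fbp1 averaged 48.6 CPM in BCAA-free mice and 10.8 CPM in amino acid mice with 5+3 (log2 change 2.12 ± 0.25, adjusted p = 1.71e-06), Flt3 23.4 CPM and 3.31 CPM (2.72 ± 0.73, adjusted p = 0.00905) and Itgam 197 CPM and 351 CPM (-0.83 ± 0.17, adjusted p = 0.000960), in the same order. Retnlg was low in both, with 3.50 CPM and 3.84 CPM (0.01, adjusted p = 0.993). Of the 37 interferon-stimulated genes 30 fell with 5+3 (median -1.17) and of the 16 guanylate-binding and immunity-related genes 15 fell (median -3.06). Of the 20 synthetases 3 fell and 1 rose (median 0.01), near the shares over all genes, of which 16.5% fell and 14% rose with 5+3. The difference between both diet changes was tested as an interaction, which 463 of 9893 genes passed (4.68%), 195 upwards (1.97%) and 268 downwards (2.71%), with 33 of the 421 among them (7.84%). The 421 were chosen by their vehicle change, which is part of that difference, so their share cannot be set against that of all genes.

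Among the genes whose diet change differed most between the treatments, 4 haemoglobins and the RNA-binding protein gene Cirbp missed the threshold with vehicle in the fit of the 10 vehicle libraries. In the fit of all 21 libraries Hbb-bt passed with vehicle (adjusted p = 0.0400), and Hbb-bs did not (adjusted p = 0.0501). Hbb-bt had 88.8, 48.6, 58.8, 97.6 and 77.6 CPM in BCAA-free mice with vehicle, against 54.0, 43.9, 20.1, 16.0 and 26.8 CPM in amino acid mice with vehicle (1.31 ± 0.35, adjusted p = 0.0785), and averaged 7.37 CPM and 47.9 CPM with 5+3, in the same order. The interaction was -3.94 ± 0.49 (adjusted p = 0.000260). Ptpn13, a protein tyrosine phosphatase gene, fell with vehicle (-1.02 ± 0.14, adjusted p = 0.000168) and rose with 5+3 (0.95 ± 0.22, adjusted p = 0.00331), an interaction of 1.97 ± 0.31 (adjusted p = 0.00154). With vehicle, Ptpn13 footprints averaged 49.5 CPM in BCAA-free mice and 97.5 CPM in amino acid mice. Its mRNA averaged 0.133 CPM and 0.157 CPM, in the same order, too low to test. Where these footprint reads come from was not tested. Srsf5 and Cirbp rose with 5+3 (1.71 and 2.82), against changes of -0.20 and 0.64 that did not pass with vehicle.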

How the data were processed

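Footprint and mRNA libraries of sorted GFP-positive cells were compared between diets. Counts per gene were deposited by the authors as raw whole numbers. Per the submitters' processing notes the tools were cutadapt, Bowtie2, STAR, SAMtools and featureCounts on GRCm38 (mm10); for their versions, the annotation, the strand setting and reads with several matches, the entry is: not given in the sources used here. Of 55487 gene identifiers, 55141 had a symbol, and 37984 matched RefSeq by symbol and 574 by synonym. The 21400 protein-coding genes were analysed.

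Genes were kept by filterByExpr (minimum count 10, minimum total 15), scaled by TMM and tested with edgeR 4.0.16 in R 4.3.3 (robust quasi-likelihood, Benjamini-Hochberg adjusted p under 0.05 over all genes tested). Unless stated, adjusted p-values and log2 changes come from that test. Footprints relative to mRNA were tested as the difference of both within mice, and the 5+3 comparison in a fit of 21 libraries. limma 3.58.1 and DESeq2 1.42.0 were alternatives. The labels call the mice biological replicates only by number, so p-values measure the spread between these mice. Total counts were 2697092 to 8036732 per footprint library, and low genes are the least precise. The code was tested on simulated data.

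The comparison, gene lists and motifs were chosen with earlier results of these data known. Named were the 12 highest and 12 lowest changes past the threshold with a mean of at least 10 CPM and at least 80% of the 25 pairs of mice going the same way, leaving out symbols made of Gm and a number or ending in Rik, up to 4 members of each list with the smallest adjusted p, a panel of 15 genes, and the 4 highest and 4 lowest interaction genes. Further members that passed are named where a count is given and were chosen after their values were seen. Some items are not reported here.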

Additional observations from a re-analysis of the deposited data

Results flagged for a closer look

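Among 172 groups of 5 mice (86 named genes past the threshold, each diet), 3 held a mouse far from the others. Chance gives 1 in 20 groups where values are independent and not selected. Passing the threshold favours little spread within a group, and genes move together, so the count cannot be set against that rate. Iqgap2 had 67.6 CPM in BCAA-free mouse 3, against 26.6 to 35.9 CPM in the other BCAA-free mice. Rbm3, a cold-induced RNA-binding protein gene, had 739 CPM in amino acid mouse 3, against 490 to 559 CPM in the other amino acid mice. Samhd1 had 158 CPM in BCAA-free mouse 5, against 108 to 117 CPM in the other BCAA-free mice.

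For 7 named genes past the threshold with vehicle, the diet change differed between the treatments (5+3 minus vehicle, edgeR's interaction test). The difference was 1.97 for Ptpn13 (adjusted p = 0.00154), 1.80 for Ifi214 (adjusted p = 0.0401), 1.57 for Tpm4, a tropomyosin gene (adjusted p = 0.00820), 1.09 for Rbm3 (adjusted p = 0.000260) and 0.67 for Csf2ra (adjusted p = 0.00582). It was -1.02 for Nkg7 (adjusted p = 0.0467) and -0.89 for the phosphofructokinase gene Pfkl (adjusted p = 0.00340). Of these, the change with vehicle was lower in BCAA-free mice for Ptpn13, Ifi214, Tpm4, Csf2ra and Pfkl and higher for Rbm3 and Nkg7. Ptpn13 and Tpm4 were named as 2 of the 4 highest genes past the threshold of that test, so their passing was fixed by the choice. The others were picked by their result with vehicle, which is part of the difference tested. The causes of these differences were not tested.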

How the results depend on the processing

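The 421 footprint calls became 654 with no filter on low counts, 57 without BCAA-free mice 1, 2 and 5 (chosen after seeing the data; 52 shared) and 253 to 452 without 1 mouse. Other settings gave 312 to 511, with 219 higher and 292 lower of 511 without the 2 shallowest libraries. No call of the 86 named genes past the threshold reversed under any setting. The 8 mRNA calls became 15 with no filter, 0 with all genes, 113 with DESeq2, 2 with all 4 groups in 1 fit, 1 without BCAA-free mice 1, 2 and 5 and 0 to 12 without 1 mouse. Leaving out those 3 was a choice on 1 side: amino acid mice 2 and 4, at the other end of the second mRNA component, were kept. The 0 calls relative to mRNA became 36 with no filter, 1 without those 3 mice and 0 to 0 without 1 mouse. The 463 interaction calls became 1115 with all genes and 257 to 762 without 1 mouse. Same-numbered mice were treated as unpaired, since the labels do not say that the numbers pair mice. Correlations of their deviations were -0.13 to 0.24 in footprints and -0.10 to 0.37 in mRNA, which cannot settle it. With the mouse number as a replicate block, footprints gave 454 calls, 350 of them shared, mRNA 5 and the interaction 272; Olfm4 (adjusted p = 0.0558) and Stfa1 (adjusted p = 0.103) then missed the threshold, and Asns (adjusted p = 0.0285) passed. Near 0, signs turned: without 1 mouse Atf4 ranged from -0.45 to 0.16, Myc from -0.027743 to 0.12, Hoxa9 from -0.001309 to 0.15 and Meis1 from -0.0763 to 0.0743. Myc was -0.0174 without the 3 mice and Meis1 -0.10 without the 2 shallowest libraries. The causes were not tested. The planned comparison with the share of leucine, isoleucine and valine in proteins was not run. Low footprint depth limits genes under 10 CPM.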
